A study of Mus musculus with 3 samples.

Results

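Collagen genes were examined across the nuclei of mouse liver. Members were chosen by symbol alone, as every gene written Col, a number, a and a number, which gave 44 of the 32285 genes in the files. At least 1 UMI was found for 43 of them and none for Col9a2, 42 were present in at least 3 nuclei, and 33 reached at least 50 UMIs over all nuclei kept. The other 11 (Col2a1, Col6a4, Col6a5, Col8a2, Col9a1, Col9a2, Col11a1, Col17a1, Col19a1, Col26a1 and Col28a1) had between 0 and 39 UMIs each and are not described further.

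Frozen livers of 3 male C57BL/6 J mice were analysed by single-nuclei RNA sequencing (sNuc-Seq), with 1 library per mouse. The control mouse received a normal diet (ND). The mice called STZ-HFHC 1 and STZ-HFHC 2 had MASH-related liver fibrosis, where MASH stands for metabolic dysfunction-associated steatohepatitis. They had received 0.2 mg of streptozocin (STZ), a toxin of pancreatic beta cells, at 3 days of age and a diet high in fat and cholesterol (HFHC; 41 kcal% fat and 43 kcal% carbohydrate) from 4 weeks of age. The age at which the livers were collected is not given in the sources used here, and no library is of a mouse given STZ or the diet alone, so the parts of toxin and diet cannot be told apart. The ND library also carries a different code in its name from both STZ-HFHC libraries, and any difference in handling that this code may stand for cannot be told apart from the condition. With 1 ND mouse, ND has no spread of its own, and no test between the conditions was made. Intervals in the text are 95% intervals of counting error only, and do not cover the spread between mice. Those of levels, ratios and shares of UMIs treat each UMI as independent, and do not cover an uneven spread of UMIs over nuclei.

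Collagens are secreted or membrane proteins of the extracellular matrix, built from chains that wind into a triple helix. Fibrillar collagens form the cross-linked fibres of scar tissue, type IV collagens form the network of basement membranes, and type VI collagens form beaded filaments. FACIT collagens attach to the surface of fibrils, and multiplexins such as type XVIII lie in basement membrane zones and can release fragments such as endostatin. In the liver, hepatic stellate cells store vitamin A at rest and are known as a main source of fibrillar collagen when activated in injury, next to portal fibroblasts. Sinusoidal endothelial cells, cholangiocytes and the mesothelium of the capsule make basement membrane collagens.

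The starts of 3 members that were higher in STZ-HFHC stellate-like nuclei are given here, since their upstream sequences differ in base composition and in the motifs they hold. Each is the stretch of 250 bases before the RefSeq start in GRCm38.p6, 5′ to 3′ on the strand of the gene, with capitals marking 3 motifs on either strand. They are the core of a GC box (GGGCGG), the CCAAT box (written as in its name) and the TATA box (TATAAA). Col3a1 lies on the plus strand (chr1:45311288-45311537), Col5a1 on the plus strand (chr2:27886175-27886424) and Col8a1 on the minus strand (chr16:57754738-57754987).
Col3a1: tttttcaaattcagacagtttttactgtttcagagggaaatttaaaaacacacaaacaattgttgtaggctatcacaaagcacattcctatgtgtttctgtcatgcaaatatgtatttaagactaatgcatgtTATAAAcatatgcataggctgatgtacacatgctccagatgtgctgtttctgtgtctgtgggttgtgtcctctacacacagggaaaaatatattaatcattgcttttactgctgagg
Col5a1: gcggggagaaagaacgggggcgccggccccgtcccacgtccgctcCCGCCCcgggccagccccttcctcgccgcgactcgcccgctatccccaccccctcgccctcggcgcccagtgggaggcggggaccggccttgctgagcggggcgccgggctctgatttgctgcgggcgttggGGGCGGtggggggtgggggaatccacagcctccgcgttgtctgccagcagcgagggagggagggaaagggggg
Col8a1: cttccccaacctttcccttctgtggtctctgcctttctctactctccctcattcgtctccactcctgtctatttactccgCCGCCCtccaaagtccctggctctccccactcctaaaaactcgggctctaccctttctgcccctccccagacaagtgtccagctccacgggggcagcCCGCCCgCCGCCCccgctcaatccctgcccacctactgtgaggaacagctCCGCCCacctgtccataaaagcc
The Col3a1 stretch held TATAAA, beginning 117 bases before the start, and neither of the other motifs. In Col5a1, GGGCGG began 205 and 73 bases before the start, and in Col8a1 it began 170, 73, 66 and 23 bases before the start. RefSeq windows were found for 35 of the 44 members, 38 windows in all. GGGCGG was in 22 of these 38 (57.9%) and in 32.7% of all 32851 windows of the same length. The CCAAT box was in 13 (34.2%, against 33.8% of all) and TATAAA in 5 (13.2%, against 12.4%). The motifs were searched as letters in these windows, and no binding was measured.

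Nuclei were grouped by clustering without the collagen genes, and clusters were named from fixed marker lists that hold no collagen gene. After filtering, ND contributed 8494 nuclei, STZ-HFHC 1 contributed 8921 and STZ-HFHC 2 contributed 10921, with 42715797 to 55632923 UMIs per library and 3015 to 4068 UMIs per median nucleus. The classes are called stellate-like and so on because their names rest on markers only. All 12 stellate markers, among them Reln, Lrat, Dcn and Hgf, were raised in the largest stellate-like cluster, which held mostly STZ-HFHC nuclei. ND and STZ-HFHC nuclei mostly fell into different clusters of the same class. Of the 1191 stellate-like nuclei of ND, 1093 were in a cluster with 1 and 4 nuclei of the STZ-HFHC mice. To the other stellate-like cluster ND gave 98 nuclei, STZ-HFHC 1 gave 778 and STZ-HFHC 2 gave 1493. When the stellate-like nuclei were clustered again, most ND nuclei fell into subclusters that the same lists named hepatocyte (595 and 441 nuclei). Only 68 ND nuclei fell into subclusters named stellate, so the ND side of this class is mostly hepatocyte-named. Endothelial-like, hepatocyte-like and macrophage-like nuclei were divided in the same way. Of the nuclei kept, 71 carried a barcode that occurs in more than 1 library.

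Stellate-like nuclei held the highest summed collagen level of the large classes. Levels are given as the UMIs of a gene per 1000000 UMIs of all genes (CPM), summed over the nuclei of a class in a library. All members together stood at 1105 CPM in stellate-like nuclei of ND (interval 1081 to 1130). The sum was 2342 CPM (2285 to 2400) for STZ-HFHC 1 and 1979 CPM (1940 to 2018) for STZ-HFHC 2, with a mean of 2161 ± 257 (SD, n = 2) over the STZ-HFHC mice. Both STZ-HFHC values lay above the ND value, and the gap to ND was larger than the gap between these mice. This order turned when the sums were scaled to the stellate markers of each library, where ND stood at 2005 and the STZ-HFHC mice at a mean of 1600.4 on the same scale. Mesothelial-like nuclei reached 1324, 3808 and 1874 CPM in ND, STZ-HFHC 1 and STZ-HFHC 2, from only 35, 58 and 40 nuclei. In endothelial-like nuclei the sums were 839, 727 and 696 CPM, and in hepatocyte-like nuclei 745, 463 and 551 CPM, so that in these classes both STZ-HFHC mice lay below ND.

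Col18a1 alone made up much of the ND sums. Without it, stellate-like nuclei stood at 603, 2234 and 1843 CPM, endothelial-like nuclei at 310, 563 and 499.9 CPM and hepatocyte-like nuclei at 173, 209 and 274 CPM in ND, STZ-HFHC 1 and STZ-HFHC 2. Each of these classes was then higher in both STZ-HFHC mice than in ND.

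**Figure D1:**
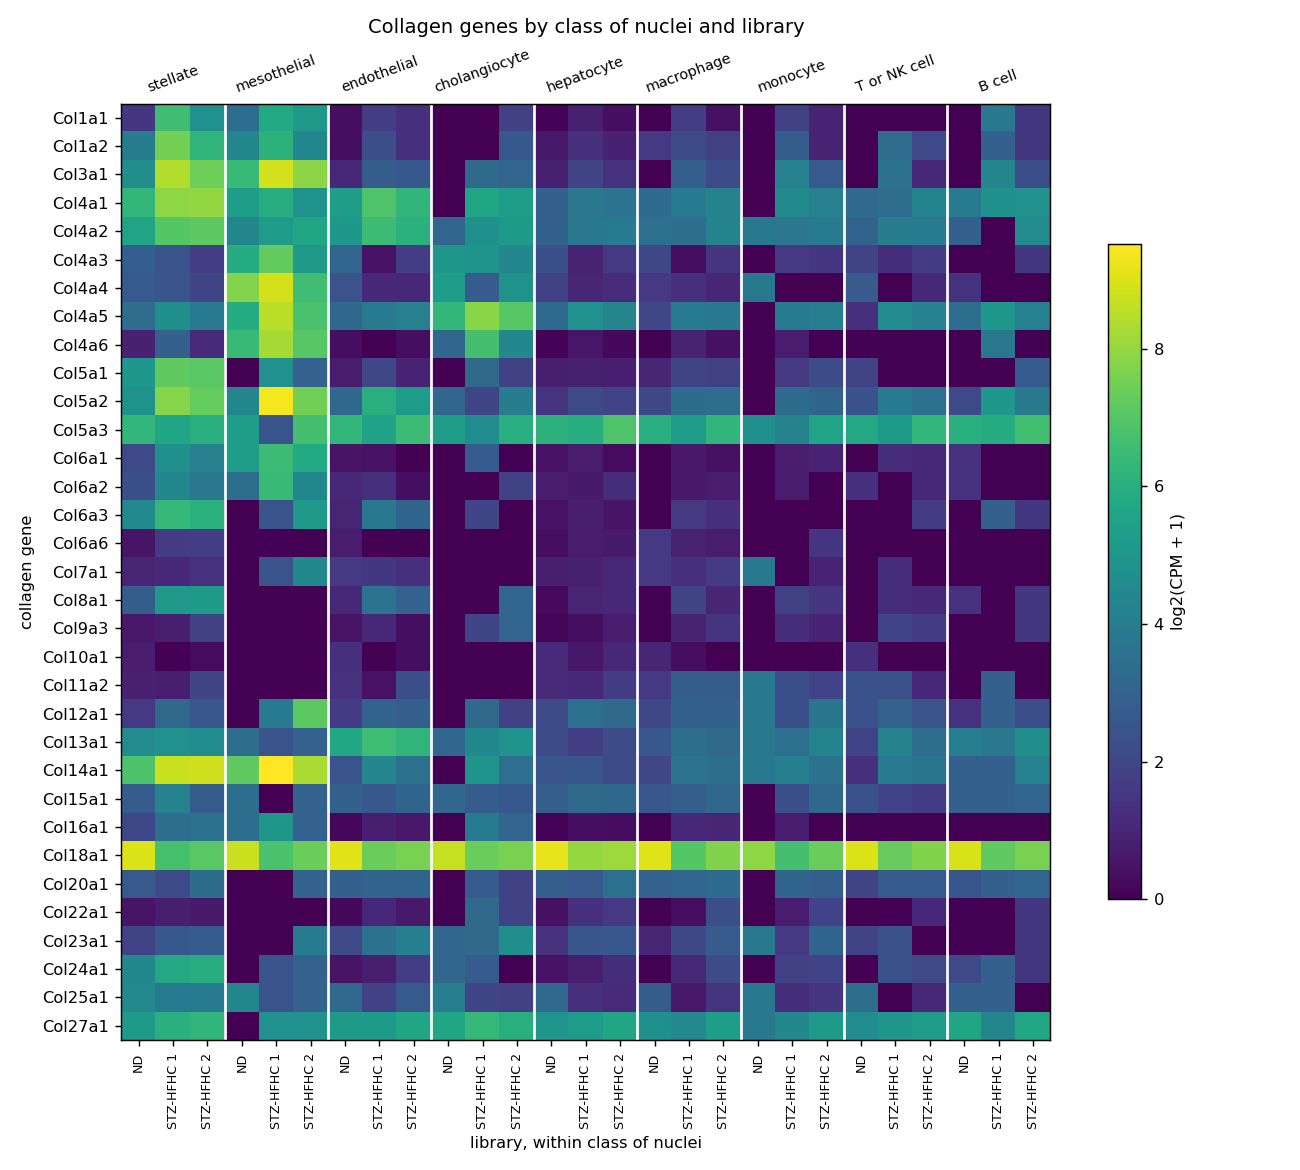
Levels of the 33 collagen genes with at least 50 UMIs (rows) in 9 classes of nuclei and 3 libraries (columns), as log2(CPM + 1) on a colour scale from 0. Fibrillar and type VI genes are bright in stellate-like and mesothelial-like columns, whereas Col18a1 and Col5a3 have similar colours in most classes of a library.

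Hepatocyte-like nuclei, which were 33.9% to 45.6% of the nuclei of a library, nevertheless held the largest share of all collagen UMIs. Their share was 39.5%, 44.9% and 50.3% for ND, STZ-HFHC 1 and STZ-HFHC 2, respectively. This is no enrichment of collagen in the class. Per UMI of all genes, its summed collagen level was below that of stellate-like and endothelial-like nuclei in every library. Stellate-like nuclei held 23.1%, 23.7% and 25.7%, from 14.0%, 8.73% and 13.7% of the nuclei. Their near equal shares rest on how the class is drawn. Only the subclusters named stellate from the marker lists held 1.46% of the collagen UMIs of ND and a mean of 13.5% in the STZ-HFHC mice, and without the limits on nuclei the class held 49.2% and 16.6%. When Col18a1 was left out, the shares of stellate-like nuclei were 38.0%, 34.5% and 36.9%, and those of hepatocyte-like nuclei were 27.7%, 30.9% and 38.5%. The endothelial-like share, at 17.6%, 7.01% and 6.26%, was lower in both STZ-HFHC libraries. Endothelial-like nuclei were also a smaller part of those libraries (13.8%, 9.85% and 9.26% of nuclei) and had a lower median depth there (5215, 1760 and 1894 UMIs).

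**Figure D2:**
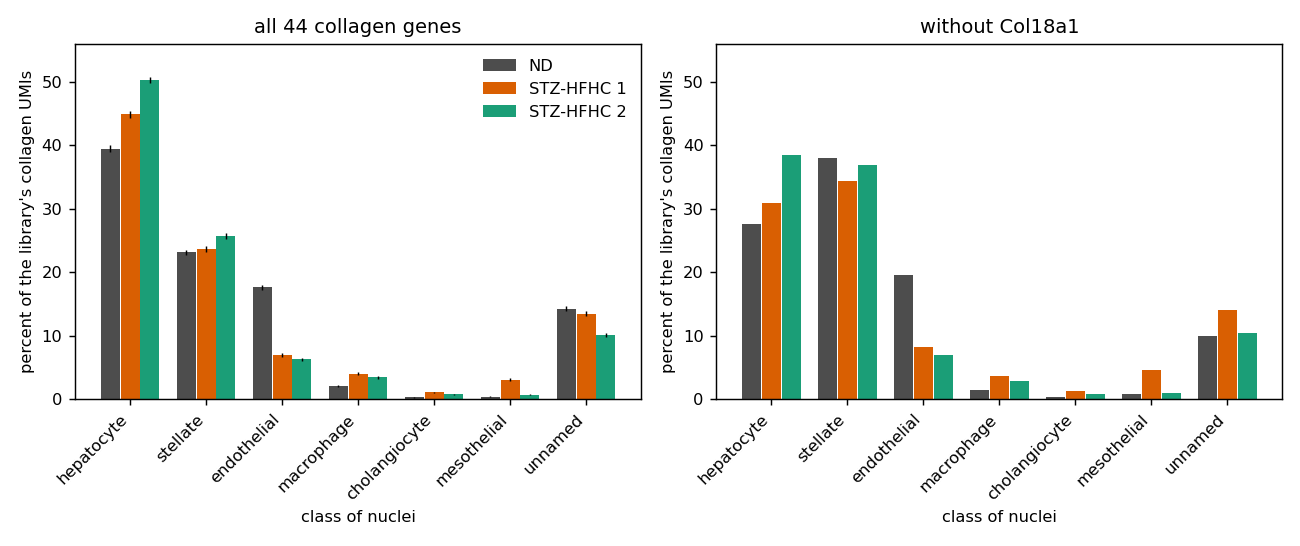
Share of the collagen UMIs of each library (percent, vertical axis) held by each class of nuclei, with all 44 genes on the left and without Col18a1 on the right; bars are the 3 libraries and the error bars on the left are exact binomial 95% intervals. Stellate-like nuclei hold 23.1% to 25.7% of collagen UMIs on the left and 34.5% to 38.0% on the right.

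Fibrillar, type IV, type VI and several minor collagens marked the stellate-like class. A gene was counted as raised in a class when it was at least 2-fold above all other nuclei of the library in all 3 libraries, with at least 20 UMIs in the class. By this rule 15 of the 29 members with enough UMIs were raised in stellate-like nuclei, where 8.18% of all genes were. They were the type I, III and V chains Col1a1, Col1a2, Col3a1, Col5a1 and Col5a2, the type IV chains Col4a1 and Col4a2, the type VI chains Col6a1, Col6a2 and Col6a3, and Col8a1, Col14a1, Col16a1, Col24a1 and Col25a1. Col5a1, a chain of the type V collagen that regulates fibril diameter, had log2 ratios to other nuclei of 5.43, 6.13 and 6.74 in ND, STZ-HFHC 1 and STZ-HFHC 2. For Col24a1, a minor fibrillar collagen, they were 5.11, 5.22 and 5.10, and for Col25a1, a transmembrane collagen, 1.59, 3.15 and 3.15. These markers of the class do not bear on the difference between the conditions.

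Other classes had fewer raised members, some of them shared with stellate-like nuclei. In endothelial-like nuclei 2 of 21 were raised, Col4a2 and Col13a1, beside 4.07% of all genes. Col13a1, a transmembrane collagen of cell contacts, stood at 50.6, 92.9 and 74.7 CPM there, and at 3.59, 2.39 and 3.68 CPM in hepatocyte-like nuclei. In hepatocyte-like nuclei 0 of 31 were raised, beside 0.0432% of all genes, and this class served as the background of free RNA for fibrillar genes. Mesothelial-like nuclei had 10 of 14 raised (10.6% of all genes), cholangiocyte-like nuclei 3 of 8 (5.35%) and macrophage-like nuclei 1 of 16 (6.22%). The macrophage-like member was Col11a2, at 2.02, 6.05 and 5.99 CPM from 2, 21 and 17 UMIs.

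The question of the study's design was then asked of these genes, namely how their levels in STZ-HFHC livers compare with ND. A member was called higher or lower when it had at least 50 UMIs in the class and both STZ-HFHC mice lay on one side of ND by a log2 ratio of 1 or more. The 50 UMIs are summed over the libraries. A member with few UMIs on one side can thus reach them only through the other side, and its call is not independent of this minimum. In stellate-like nuclei 26 members had enough UMIs. Of these, 15 were higher, where 12.6% of all genes were, and 1 was lower, where 8.14% were. The median log2 ratio of the 26 was 1.60, against 0.07 for all 12262 genes.

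These ratios moved together with the markers of the class. The 12 stellate markers themselves had a median log2 ratio of 1.16, and 5 of them were higher and 0 lower. Their summed level was 2138 CPM for ND against 5414 and 5041 CPM for STZ-HFHC 1 and 2. The 10 hepatocyte markers, in the same nuclei, stood at 15594, 7149 and 10242 CPM. Median depth was 4716, 2611 and 2400 UMIs. Macrophage markers stood at 514, 1055 and 852 CPM, and endothelial markers at 1011, 1331 and 1048 CPM. The ND nuclei of this class thus carried a lower level of stellate and macrophage RNA and a higher level of hepatocyte RNA, and the part of this in the collagen ratios was not tested. For that reason, values are also given relative to the summed stellate markers, and within the subclusters of the class that the lists named stellate. These subclusters consisted of 68, 301 and 649 nuclei in the order ND, STZ-HFHC 1 and STZ-HFHC 2. They were again divided by library, with 63, 0 and 1 nuclei in subcluster 8 and 5, 285 and 623 in subcluster 1. Both views were chosen after the data had been seen. The markers are no fixed reference for the scaling. Within the stellate-named subclusters Ecm1, Colec11, Hand2, Angptl6 and Cxcl12 had log2 ratios to ND below −1 in both STZ-HFHC mice. The other markers did not, among them Reln at 0.01 and −0.21. The part of these differences in the scaled calls was not tested.

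Relative to stellate markers, 6 of the 26 members were higher (Col1a1, Col1a2, Col3a1, Col5a2, Col6a1 and Col8a1; 1.88% of all genes) and 6 were lower (Col4a3, Col4a4, Col5a3, Col13a1, Col18a1 and Col25a1; 54.5% of all genes). The median of the members was 0.31, against −1.22 for all genes. Within the stellate-named subclusters 17 members had enough UMIs. There, 3 were higher (Col1a1, Col3a1 and Col5a3; 7.24% of all genes) and Col25a1 was lower (5.71%), with a median of 0.58 against 0.03. Col1a1 and Col3a1 were the members called higher in each of the 3 views. In the subclusters hepatocyte markers stood at 7455, 4834 and 7112 CPM and stellate markers at 13952, 9000 and 9017 CPM, so that the marker level was there higher in ND. Ecm1, a stellate marker, was at 1941, 185 and 303 CPM, while Reln was at 4189, 4228 and 3617 CPM.

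**Figure D3:**
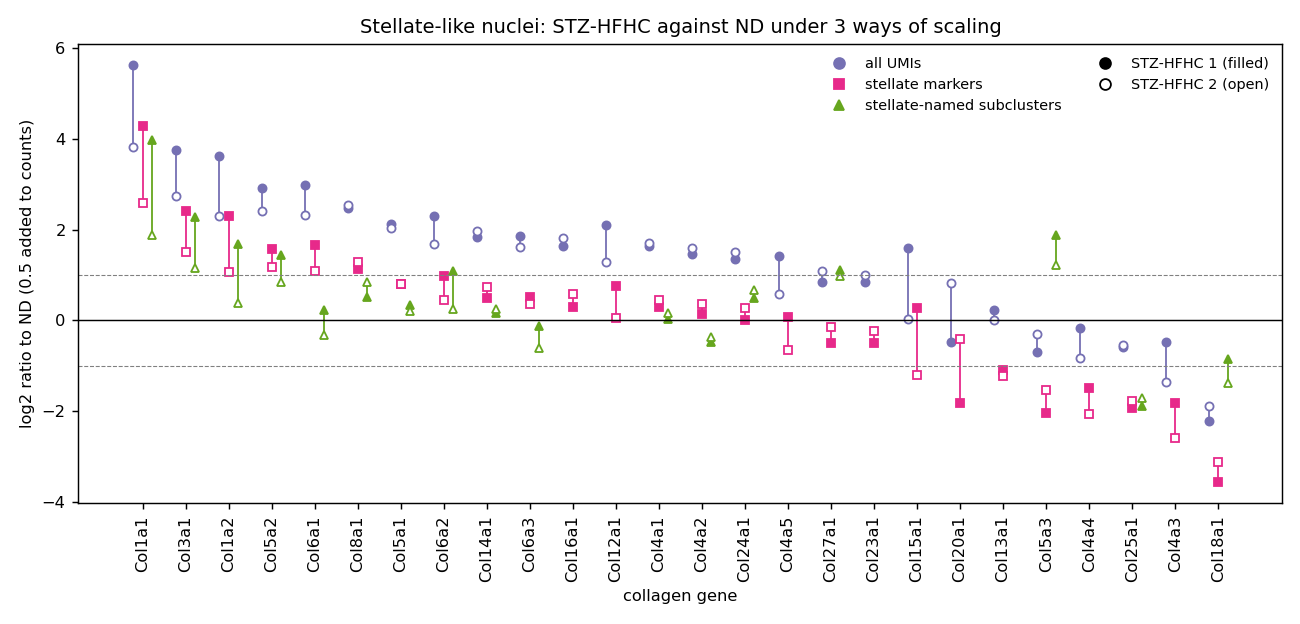
Log2 ratio of each STZ-HFHC mouse to ND (vertical axis, 0.5 added to counts) for the 26 collagen genes with at least 50 UMIs in stellate-like nuclei; filled marks are STZ-HFHC 1, open marks STZ-HFHC 2, and dashed lines mark ratios of 1 and −1. Circles (all UMIs), squares (scaled to stellate markers) and triangles (stellate-named subclusters, 17 genes) share a position above 1 in both mice for Col1a1 and Col3a1 only.

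Among fibrillar genes, 6 of 8 were higher in the whole class, beside the share of all genes given above. Their median log2 ratio was 2.38. Col1a1 (ENSMUSG00000001506, chromosome 11, 94936224 to 94953042, plus strand), which encodes the alpha-1 chain of type I collagen, stood at 1.85 CPM for ND, at 95.6 CPM for STZ-HFHC 1 and at 27.3 CPM for STZ-HFHC 2, from 13, 263 and 137 UMIs. Both STZ-HFHC values lay far above ND, and they also differed from each other, with a mean of 61.4 ± 48.3 CPM (SD, n = 2) and a ratio of 3.51 between the mice (2.84 to 4.34). STZ-HFHC 1 was 51.7 times ND (29.7 to 98.3), and STZ-HFHC 2 was 14.7 times ND (8.33 to 28.4). Of the 263 UMIs of STZ-HFHC 1, 70 came from a single nucleus, which these intervals do not take into account. Within the stellate-named subclusters Col1a1 stood at 10.2, 201 and 46.8 CPM, where the ND value rests on 2 UMIs. The ratios there were 19.8 (5.39 to 164) and 4.59 (1.23 to 38.5).

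Col1a2, the alpha-2 chain of type I collagen (chromosome 6, 4504814 to 4541544, plus strand), stood at 14.8, 185 and 73.8 CPM in ND, STZ-HFHC 1 and STZ-HFHC 2, with log2 ratios of 3.64 and 2.31. In the stellate-named subclusters it stood at 102, 335 and 136 CPM. STZ-HFHC 1 was above ND there, whereas the ratio of STZ-HFHC 2 to ND, 1.34, had an interval (0.85 to 2.22) that spans equality. Col3a1, the chain of type III collagen (chromosome 1, 45311538 to 45349706, plus strand), stood at 25.2, 340.3 and 169 CPM, with log2 ratios of 3.75 and 2.74. It stood at 127, 627 and 291 CPM in the subclusters, with ratios of 4.92 (3.30 to 7.67) and 2.28 (1.53 to 3.56). Col3a1 was therefore above ND in both mice in either view, and higher in STZ-HFHC 1 than in STZ-HFHC 2.

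The type V chains did not behave alike. Col5a2 stood at 28.9, 220.3 and 154 CPM in the class and at 132, 366 and 242 CPM in the subclusters, above ND in both mice and both views, though past the limit in the class only. Col5a1 was at 33.0, 145 and 136 CPM in the class, with log2 ratios of 2.14 and 2.04, and at 199, 255 and 234 CPM in the subclusters, where the log2 ratios were 0.34 and 0.22. Col5a3 showed the opposite order in the class, at 77.0, 47.6 and 62.9 CPM, and was called higher in the subclusters, at 10.2, 46.9 and 29.6 CPM with 2 UMIs in ND. Col5a3 was at 68.8, 59.9 and 117 CPM in hepatocyte-like nuclei. Its values in the stellate-like class had the same order over the libraries as the hepatocyte markers in that class. The part of hepatocyte RNA in these values was not tested.

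Col24a1 was the last of the 6 fibrillar genes called higher, at 20.8, 53.1 and 59.3 CPM. In the subclusters it stood at 66.2, 95.8 and 109 CPM, below the limit. Col27a1, a fibrillar collagen of cartilage, had 35.9, 64.3 and 76.2 CPM, with log2 ratios of 0.84 and 1.09, and was the member closest to the limit from below next to Col23a1 (0.85 and 1.01). The member just inside it was Col12a1, with a smaller log2 ratio of 1.30. Col11a2 had 6, 2 and 15 UMIs in stellate-like nuclei, too few to compare.

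**Figure D4:**
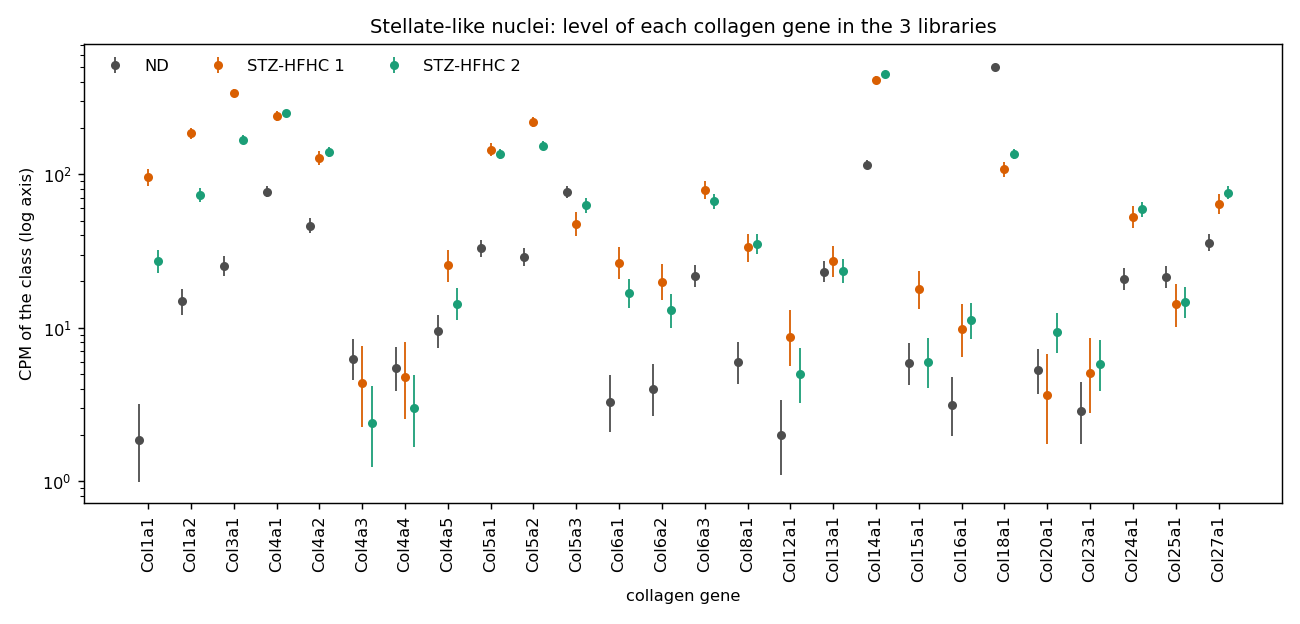
Level of 26 collagen genes in stellate-like nuclei of ND, STZ-HFHC 1 and STZ-HFHC 2 (CPM of the class, log axis), with bars for exact Poisson 95% intervals. The 15 genes called higher have both STZ-HFHC points above ND, and Col18a1 has both below, at 108 and 136 CPM against 503 CPM.

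In STZ-HFHC 1 type I and III UMIs were unevenly spread over nuclei, as a look at single nuclei added after the sums were seen showed. In ND each of the 13 Col1a1 UMIs came from a different nucleus, so that the 10 highest held 76.9% of them. The 263 Col1a1 UMIs of STZ-HFHC 1 came from 65 of 779 nuclei, and the 10 highest of these nuclei held 68.1% of them, with 70 UMIs in a single nucleus. For Col3a1 the 10 highest nuclei held 12.4%, 39.7% and 13.5% of UMIs in ND, STZ-HFHC 1 and STZ-HFHC 2. For Col1a1 in STZ-HFHC 2 the 10 highest nuclei held 41.6% of 137 UMIs. Without the 10 highest nuclei of each library, Col1a1 stood at 0.43, 31.3 and 16.1 CPM in ND, STZ-HFHC 1 and STZ-HFHC 2. Col3a1 then stood at 22.2, 210.5 and 148 CPM and Col1a2 at 11.7, 97.8 and 58.0 CPM. Since the nuclei left out were chosen by their UMIs of the gene itself, these values only describe how much of each sum a few nuclei carried. For Col14a1 the 10 highest nuclei held only 8.59%, 11.7% and 6.83% of UMIs. The trait was not particular to types I and III. The 10 highest nuclei held 15.8%, 26.1% and 9.17% of Col5a2 UMIs and 8.86%, 15.7% and 6.98% of Col4a1 UMIs in the same order.

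The share of nuclei with a UMI was compared after thinning every nucleus to 1000 UMIs, which left out 85, 31 and 47 stellate-like nuclei. Of the stellate-like nuclei of ND, 0.362% had a Col1a1 UMI (0.0986% to 0.923%), against 4.14% (2.83% to 5.83%) of those of STZ-HFHC 1 and 2.28% (1.57% to 3.18%) of those of STZ-HFHC 2. In hepatocyte-like nuclei, which should lack it, the shares were 0%, 0.0334% and 0.0419%; a count of 0 in 3657 nuclei allows up to 0.082%. Col3a1 was found in 4.34%, 21.1% and 14.8% of stellate-like nuclei, and in 0.164%, 0.367% and 0.252% of hepatocyte-like nuclei. These shares lay above the background in every library, also in ND. A UMI of Col1a1, Col1a2 or Col3a1 was found in 7.23%, 28.7% and 20.3% of stellate-like nuclei. Among nuclei of the stellate-named subclusters this share was 23.9% (14.3% to 35.9%) for ND, 37.5% (32.1% to 43.3%) for STZ-HFHC 1 and 24.7% (21.4% to 28.2%) for STZ-HFHC 2. The interval of ND there spans the value of STZ-HFHC 2, so that a difference between them was not detectable at this depth. Unthinned median depths of stellate-like and hepatocyte-like nuclei were 4716 and 3782 UMIs for ND, 2611 and 7861 UMIs for STZ-HFHC 1, and 2400 and 6528 UMIs for STZ-HFHC 2. Without thinning, Col1a1 was found in 1.09%, 8.34% and 4.94% of stellate-like nuclei.

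The main basement membrane chains, Col4a1 and Col4a2, were higher in the class and were not called in the subclusters. Col4a1 stood at 77.2, 241 and 251 CPM in stellate-like nuclei of ND, STZ-HFHC 1 and STZ-HFHC 2, with a mean of 246 ± 7.22 CPM (SD, n = 2) over the STZ-HFHC mice. Col4a2 stood at 46.3, 129 and 139 CPM. In the stellate-named subclusters Col4a1 was at 336, 344 and 380.5 CPM, with ratios to ND of 1.02 (0.78 to 1.35) and 1.13 (0.88 to 1.48), and Col4a2 was at 280.3, 203 and 218 CPM, with both STZ-HFHC mice below ND and a mean log2 ratio of −0.42. In contrast to type I chains, the STZ-HFHC mice had nearly the same level of Col4a1, with a ratio of 0.96 between them (0.87 to 1.05).

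Type VI chains followed a like course. Col6a1, Col6a2 and Col6a3 were called higher in the class, 3 of 3, with a median log2 ratio of 2.00. Col6a3, the longest of these chains, stood at 21.8, 79.6 and 66.6 CPM, and Col6a1 at 3.27, 26.5 and 16.7 CPM. In the subclusters 0 of 3 were called. In either view 3 members are too few to set against the share of all genes given above. Col6a3 stood at 138, 128 and 92.0 CPM in the subclusters, with both STZ-HFHC mice below ND. Col6a1 there had 6 UMIs in ND and levels of 30.6, 38.3 and 26.4 CPM. Col6a6 had 3, 6 and 12 UMIs in stellate-like nuclei.

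FACIT and short chain collagens completed the members called higher. Col14a1, a FACIT collagen that binds fibrils, stood at 116, 416 and 455 CPM in the class, with log2 ratios of 1.84 and 1.97 and a mean of 435 ± 27.1 CPM over the STZ-HFHC mice. In the subclusters it was at 657, 739 and 787 CPM, and was found in 46.3%, 46.8% and 45.7% of nuclei thinned to 1000 UMIs. The shares of the 3 libraries there differed by less than their counting error. Col8a1, a short chain collagen of vessel walls, stood at 5.98, 33.4 and 35.0 CPM in the class and at 30.6, 46.9 and 59.2 CPM in the subclusters. Col12a1 (1.99, 8.73 and 4.97 CPM) and Col16a1 (3.13, 9.82 and 11.1 CPM) were called higher in the class, and both had under 50 UMIs in the subclusters. Col20a1 stood at 5.27, 3.64 and 9.35 CPM, with the STZ-HFHC mice on opposite sides of ND.

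Of the transmembrane collagens 0 of 3 were called higher in the class, too few members to set against the share of all genes given above. Col13a1 was at 23.2, 27.3 and 23.5 CPM, with intervals of both ratios to ND that span equality. Col25a1 was at 21.5, 14.2 and 14.7 CPM in the class and at 86.6, 23.4 and 26.9 CPM in the subclusters, where it was the member called lower, with log2 ratios of −1.90 and −1.71 from 17 UMIs in ND. Col23a1 was at 2.85, 5.09 and 5.77 CPM.

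Col18a1, a multiplexin known as a product of hepatocytes in the liver, was the most abundant member by UMIs, with 45429 UMIs in 15954 nuclei. In hepatocyte-like nuclei it stood at 571, 255 and 277 CPM for ND, STZ-HFHC 1 and STZ-HFHC 2, with log2 ratios of −1.17 and −1.04. Other classes showed the same order, with 529, 164 and 196 CPM in endothelial-like nuclei, 525, 127 and 208 CPM in macrophage-like nuclei and 503, 108 and 136 CPM in stellate-like nuclei. Its level thus differed little between these classes in ND, and was lower outside hepatocyte-like nuclei in both STZ-HFHC mice. In the stellate-named subclusters it was at 138, 77.7 and 53.3 CPM. Hepatocyte markers of ND stood at 15594 CPM in all stellate-like nuclei and at 7455 CPM in these subclusters. The part of free hepatocyte RNA in the values outside hepatocyte-like nuclei was not tested. Slc19a1 overlaps Col18a1 on the other strand, and whether the counting used strand is not given in the sources used here. Col15a1, the other multiplexin, stood at 5.84, 17.8 and 5.97 CPM in stellate-like nuclei, with an interval of the ratio to ND above 1 in STZ-HFHC 1 only.

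Members were ranked against each other per kilobase of gene (CPM divided by the length from first to last base in GENCODE M21). Use of intronic reads is not given in the sources used here, and whether counts follow gene length was not tested. The ranks therefore rest on this choice. Other comparisons between genes, such as those within type IV pairs, use UMIs without this scaling. In stellate-like nuclei of ND, Col18a1 ranked first, at 4.39 CPM per kb, before Col5a3 at 1.71 and Col4a1 at 0.675 CPM per kb. In both STZ-HFHC mice Col3a1 ranked first, at 8.92 and 4.43 CPM per kb. Without the division by length Col3a1 was not first. Col14a1 had 1145 and 2285 UMIs in STZ-HFHC 1 and STZ-HFHC 2, against 936 and 849 for Col3a1. Col4a1, with 1261 UMIs, was also above Col3a1 in STZ-HFHC 2. Col1a1 ranked 16 of 33 in ND, at 0.110 CPM per kb, 2 in STZ-HFHC 1, at 5.68, and 5 in STZ-HFHC 2, at 1.62. In STZ-HFHC 2 Col4a1 (2.19), Col14a1 (2.13) and Col1a2 (2.01 CPM per kb) followed Col3a1 within a narrow range.

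Subclusters of the stellate-like nuclei differed in the members they carried. Subclustering gave 9, of which the lists named 3 stellate, 3 hepatocyte and 1 fibroblast, and left 2 unnamed. The fibroblast-named one, of 36, 28 and 45 nuclei in the order ND, STZ-HFHC 1 and STZ-HFHC 2, carried the fibroblast markers Eln at 271 CPM and Dpt at 83.4 CPM. Over the libraries it had Col3a1 at 459 CPM, Col14a1 at 410.2 CPM, Col5a2 at 399.8 CPM, Col1a2 at 268 CPM and Col6a3 at 219 CPM. It was also the subcluster with Col4a4 (97.3 CPM) and Col4a5 (115 CPM), chains that were low in stellate-named nuclei. Its collagen sum was 2521, 4273 and 3247 CPM in ND, STZ-HFHC 1 and STZ-HFHC 2. Of the 3 hepatocyte-named subclusters, subcluster 2 had 8, 230 and 538 nuclei in the same order, and a collagen sum of 1391 CPM for STZ-HFHC 1 and 1473 CPM for STZ-HFHC 2. The other hepatocyte-named ones consisted almost wholly of ND nuclei, 595 and 441, with collagen sums of 1098 and 1014 CPM. Subcluster 5, left unnamed with endothelial and macrophage markers together, had 4, 184 and 244 nuclei, of which 49.8% had doublet scores in the highest 8% of their library. The stellate-named subclusters together stood at 2492, 3775 and 2913 CPM, a narrower gap to ND than in the whole class.

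**Figure D5:**
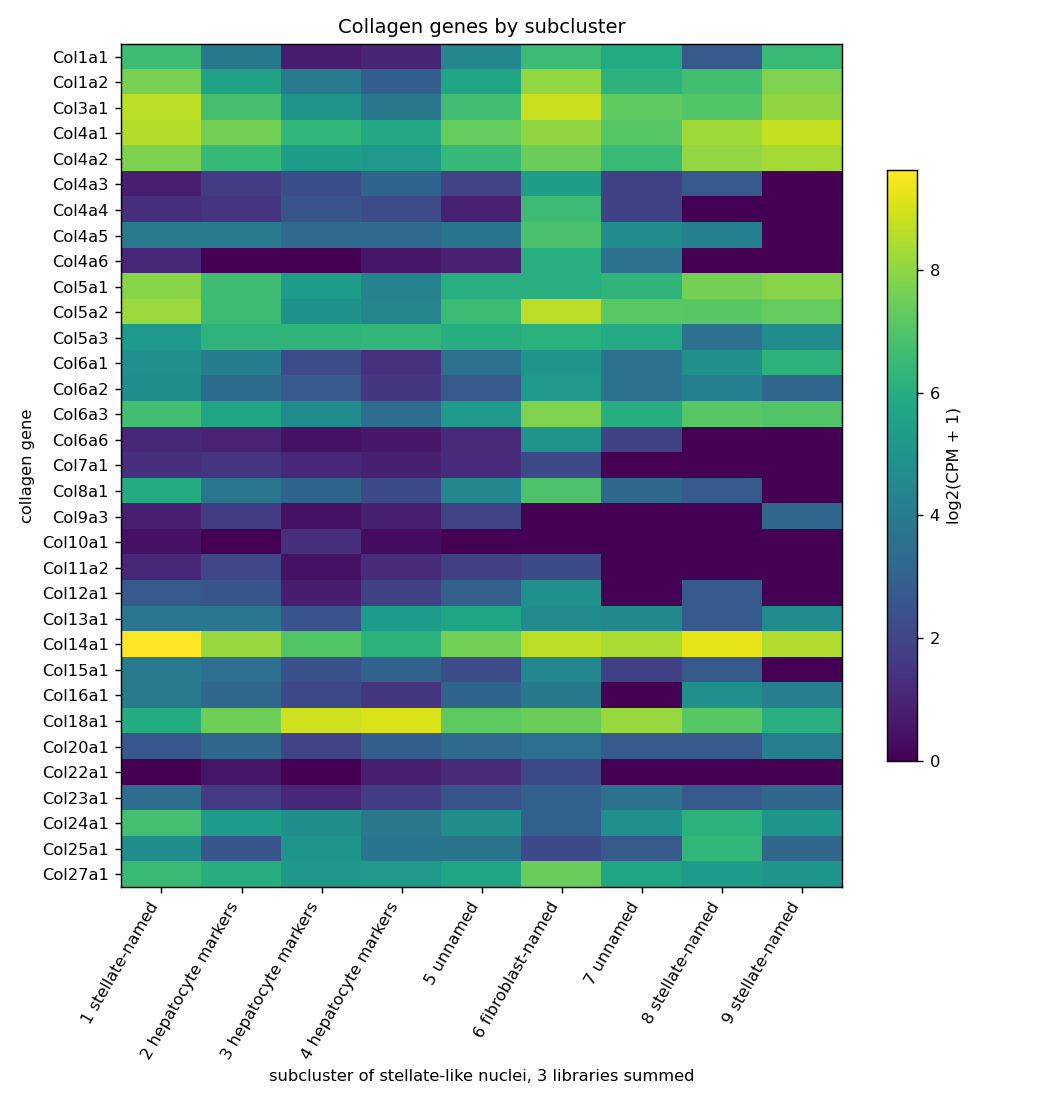
Levels of 33 collagen genes (rows) in 9 subclusters of stellate-like nuclei (columns, libraries summed), as log2(CPM + 1) on a colour scale from 0. Subclusters 1 and 9, named stellate, and 6, named fibroblast, are brightest for Col1a2 and Col3a1, and of the hepatocyte-named subclusters 2, 3 and 4, the last 2, of ND nuclei, are brightest for Col18a1.

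The minor type IV chains, Col4a3 to Col4a6, were all raised in mesothelial-like nuclei, and 3 of the 4 in cholangiocyte-like nuclei, where Col4a4 had too few UMIs to be counted. In mesothelial-like nuclei Col4a4 stood at 214, 477 and 96.8 CPM in ND, STZ-HFHC 1 and STZ-HFHC 2, Col4a3 at 58.4, 151 and 34.6 CPM, Col4a5 at 58.4, 371 and 111 CPM and Col4a6 at 87.6, 298 and 131 CPM. All 4 were highest in STZ-HFHC 1, and Col4a3 and Col4a4 of STZ-HFHC 2 lay below ND. The raised members there also included Col1a2, Col3a1, Col5a2, Col6a1, Col6a2 and Col14a1. Col5a2 stood at 19.5, 674 and 180.4 CPM, from 2, 147 and 26 UMIs, Col3a1 at 87.6, 467 and 235 CPM and Col14a1 at 146, 733 and 318 CPM. In cholangiocyte-like nuclei the raised members were Col4a3, Col4a5 and Col4a6. Col4a5 stood there at 78.7, 226 and 130.4 CPM and Col4a6 at 7.87, 103 and 20.5 CPM, from 1, 35 and 8 UMIs. These classes had 32 to 139 nuclei per library, and no rule of size was applied between the conditions.

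The 6 type IV genes lie in head-to-head pairs, each pair with neighbouring starts on opposite strands. In the GENCODE M21 annotation the starts of Col4a1 and Col4a2 on chromosome 8 are 21 bases apart and the genes overlap there, those of Col4a3 and Col4a4 on chromosome 1 are 72 bases apart, and those of Col4a5 and Col4a6 on chromosome X are 1309 bases apart. Over the 27 points of 9 classes in 3 libraries, which share libraries and free RNA, Pearson's r of the CPM was 0.963 (Spearman's rho 0.831) for Col4a1 and Col4a2, 0.976 (0.729) for Col4a3 and Col4a4, and 0.918 (0.699) for Col4a5 and Col4a6. For Col4a3 to Col4a6 the high points were mostly those of the small mesothelial-like and cholangiocyte-like classes. Type IV genes of different pairs were not compared, so these values do not set the pairs apart from other type IV genes. The balance within a pair still depended on the class. Col4a1 made up 62.5%, 65.2% and 64.3% of the UMIs of its pair in stellate-like nuclei, 54.0%, 56.4% and 53.5% in endothelial-like nuclei and 49.4%, 49.8% and 44.1% in hepatocyte-like nuclei. The intervals of stellate-like nuclei (59.2% to 65.7% in ND) lay above those of endothelial-like nuclei (49.6% to 58.4% in ND) in all 3 libraries. Col4a5 made up 40.0%, 55.5% and 45.7% of its pair in mesothelial-like nuclei, and 99.4%, 98.2% and 99.3% in hepatocyte-like nuclei.

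In endothelial-like nuclei 17 members had enough UMIs for the comparison of STZ-HFHC with ND. Of these, 7 were higher, where 8.26% of all genes were, and 2 were lower, where 5.34% were. The higher members were Col4a2, Col5a2, Col6a3, Col8a1, Col12a1, Col14a1 and Col23a1, and the lower ones Col4a3 and Col18a1. Col6a3 and Col8a1 had 7 and 8 UMIs in ND and reached 50 UMIs through the STZ-HFHC mice. Col4a3 had 54, 1 and 8 UMIs and reached them through ND. Col4a2 stood at 33.0, 91.4 and 66.9 CPM and Col5a2 at 8.22, 61.7 and 36.5 CPM. Col4a1, at 38.8, 118 and 77.0 CPM, had log2 ratios of 1.60 and 0.99 and missed the limit in STZ-HFHC 2 by little. Of the ND nuclei of this class, 1158 of 1171 were in a cluster that held 0 and 10 nuclei of the STZ-HFHC mice. Endothelial markers had a median log2 ratio of 1.05, and relative to them 3 members were higher (2.2% of all genes) and 3 lower (19.7%). The part of the marker level in these calls was not tested. Col6a3 and Col14a1, at 13.3 and 20.2 CPM in STZ-HFHC 1, were at 79.6 and 416 CPM in its stellate-like nuclei.

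In hepatocyte-like nuclei 26 members had enough UMIs, 6 were higher (8.64% of all genes) and 4 were lower (5.77%). Col4a5 was the higher member with the most UMIs, at 9.10, 27.0 and 19.0 CPM from 162, 713 and 671 UMIs. Col12a1, a FACIT collagen, stood at 3.65, 10.2 and 8.84 CPM, above its level in stellate-like nuclei in all 3 libraries. The others were Col3a1, Col8a1, Col22a1 and Col23a1, all at 4.96 CPM or less in every library. Col8a1 and Col22a1 had 3 and 6 UMIs in ND and reached 50 UMIs through the STZ-HFHC mice. Col3a1, at 0.786, 2.92 and 1.64 CPM, was at 340.3 CPM in stellate-like nuclei of STZ-HFHC 1. The lower members were Col4a3, Col4a4, Col18a1 and Col25a1, the last at 8.65, 1.52 and 1.28 CPM. Hepatocyte markers had a median log2 ratio of −0.91 in this class, and relative to them 8 members were higher (12.2% of all genes) and 1 was lower (3.62%). ND and STZ-HFHC hepatocyte-like nuclei were in different clusters here too.

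Macrophage-like nuclei carried few collagen UMIs. Of 10 members with enough UMIs, 3 were higher (Col4a5, Col5a2 and Col14a1; 14.1% of all genes) and Col18a1 was lower (5.34%). Col14a1 stood at 3.03, 11.2 and 9.86 CPM, of which the ND value rests on 3 UMIs, and Col4a5 at 3.03, 13.8 and 13.4 CPM, also from 3 UMIs in ND. Col5a2 stood at 3.03, 9.23 and 9.51 CPM, again from 3 UMIs in ND. All of these higher members reached 50 UMIs through the STZ-HFHC mice, so their calls are not independent of the minimum. Relative to macrophage markers, 0 of the 10 were higher (4.32% of all genes) and 1 was lower (27.2%). Col1a1 had 0, 8 and 1 UMIs in this class. Of the ND nuclei, 231 of 247 were in a cluster with 0 and 2 nuclei of the STZ-HFHC mice.

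Over all nuclei kept, 33 members had enough UMIs, and 12 were higher (13.6% of all genes) and 3 lower (4.74%), with a median log2 ratio of 0.86 against 0.18 for all genes. Col1a1 stood at 0.398, 7.76 and 3.29 CPM, Col1a2 at 2.88, 14.7 and 7.96 CPM and Col3a1 at 4.99, 28.5 and 18.4 CPM. These values do not depend on clustering, and each gene was above ND in both mice. Stellate-like nuclei were 14.0%, 8.73% and 13.7% of the libraries, and nuclei of the stellate-named subclusters were 0.801%, 3.37% and 5.94%. The part of these shares in the values over all nuclei was not tested. Col4a5, Col5a2, Col6a1, Col8a1, Col9a3, Col12a1, Col16a1, Col22a1 and Col23a1 were also higher, Col9a3 from 10, 31 and 57 UMIs. The lower members were Col4a3, Col18a1 and Col25a1, the last at 9.53, 2.39 and 2.84 CPM. Col14a1, at 23.2, 37.6 and 47.2 CPM, had log2 ratios of 0.70 and 1.02 and was not called. Col7a1 (1.03, 1.01 and 1.35 CPM), Col10a1 (1.15, 0.316 and 0.791 CPM), Col11a2 (1.17, 1.87 and 2.95 CPM), Col6a6 (0.421, 0.699 and 0.737 CPM) and Col20a1 (5.57, 5.64 and 9.60 CPM) were low in all libraries and not called.

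Genes that process and sense collagen were taken from 2 lists, one of 28 biosynthesis genes and the other of 12 receptors. In stellate-like nuclei 10 of the 22 biosynthesis genes with enough UMIs were higher and 1, the procollagen protease gene Bmp1 (named after its values were seen), was lower, with a median log2 ratio of 0.85. Of 10 receptors 8 were higher and 0 lower, with a median of 1.61. Among all genes of this class 12.6% were higher and 8.14% lower. Serpinh1, which encodes the collagen chaperone HSP47, stood at 4.41, 30.5 and 18.5 CPM in ND, STZ-HFHC 1 and STZ-HFHC 2. Plod2, a lysyl hydroxylase of collagen cross-links, stood at 9.68, 59.6 and 51.5 CPM, and P3h2, a prolyl 3-hydroxylase, at 28.5, 161 and 125 CPM. The procollagen N-propeptidase genes Adamts2 (41.9, 184 and 152 CPM), Adamts3 (15.4, 84.0 and 60.9 CPM) and Adamts14 (5.55, 34.9 and 36.0 CPM) were higher as well. All of these were above ND in both STZ-HFHC mice.

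Of the receptors, the collagen-binding kinase Ddr2 stood at 26.6, 140 and 126 CPM and its relative Ddr1 at 1.71, 9.09 and 7.36 CPM. The adhesion receptor Adgrg6 was at 5.55, 27.6 and 21.9 CPM, and Lair1, an inhibitory receptor of immune cells, at 6.41, 62.5 and 38.4 CPM. Lair1 was among the leading genes of the mixed endothelial and macrophage subcluster 5, at 138 and 88.8 CPM in STZ-HFHC 1 and 2, and stood at 5.10, 22.4 and 15.6 CPM in the stellate-named subclusters, from 1, 21 and 29 UMIs. Relative to stellate markers, 2 of 22 biosynthesis genes were higher (Adamts14 and Plod2) and 6 lower, with a median log2 ratio of −0.44, and 2 of 10 receptors were higher (Ddr2 and Lair1) and 1 lower, with a median of 0.32. Of all genes 1.88% were higher and 54.5% lower on that scale. Within the stellate-named subclusters, 2 of 16 biosynthesis genes were higher and 0 lower (median 0.03), and 1 of 6 receptors was higher (median 0.09), beside 7.24% and 5.71% of all genes higher and lower. In endothelial-like nuclei 2 of 16 biosynthesis genes were higher and 1 lower (8.26% and 5.34% of all genes), and in hepatocyte-like nuclei 3 of 21 were higher and 1 lower (8.64% and 5.77%), counts near those shares.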

How the data were processed

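For each of the 3 libraries the authors deposited a matrix of raw UMI counts (genes by barcodes), made from 10x Chromium 3′ v3.1 libraries with Cell Ranger 7.0.1 and mm10, per the submitters' processing notes. Use of intronic reads, of strand and of a correction for free RNA is not given in the sources used here.

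Following the study's methods, a nucleus needed 200 to 5000 genes and no more than 5% mitochondrial counts, and genes in at least 3 nuclei were kept. The files hold 30989 barcodes, the number the study gives after its filter, but these limits left 28336 of them. With Python 3.11.15, scanpy 1.11.5, leidenalg 0.10.2, scikit-learn 1.9.0, NumPy 2.4.6 and SciPy 1.17.1, counts were scaled to 10000 per nucleus and log-transformed, and 2000 variable genes without collagens, 30 components, 15 neighbours and Leiden resolution 1 were used, with no batch correction. Clusters were named from fixed marker lists (a marker was raised at 2-fold over other clusters in at least 5% of nuclei; at least 3 markers and 33.3% of a list were required). Clusters with few raised markers were named hepatocyte-like in a second step, from at least 3 hepatocyte markers at 1.2 times the other clusters, and mixed clusters stayed unnamed. Stellate-like nuclei were clustered again with 1000 genes, 20 components and resolution 0.5. Scrublet marked 1, 0 and 0 doublets and did not work, and doublets were kept.

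Counts were summed per class and library. Intervals are exact Poisson for CPM, conditional binomial for ratios and Clopper-Pearson for shares. PCR duplicates are collapsed by UMIs, and intervals cover counting error only. Log2 ratios had 0.5 added to each count, and the rule of size (50 UMIs, log2 ratio of 1) was applied to all genes. All members with at least 50 UMIs were named, and of the 2 lists the 10 with the largest smaller ratio. The members, lists and rules were chosen with earlier results of these data known. Coordinates are from GENCODE M21 (GRCm38), which held all 44 members. Alternatives covered filters, doublets, clustering, scaling, thinning, the minimum of UMIs and leaving out each STZ-HFHC mouse.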

Additional observations from a re-analysis of the deposited data

How the results depend on the processing

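No paired analysis was possible because ND is a single library without a replicate number, and no comparison was tested. Besides the main setting, the share of all genes called is given above only for the marker scaling and the stellate-named subclusters. Counts under the other settings describe the members alone and cannot be set against all genes. In stellate-like nuclei 15 members were higher and 1 was lower, with a median log2 ratio of 1.60. With a log2 ratio of at least 2 required in both mice, 7 were higher and 0 lower. Scaled to the markers of the class, 6 were higher and 6 lower, with a median of 0.31. In the stellate-named subclusters 3 were higher, the median was 0.58, and Col4a2 (−0.42), Col6a1 (−0.042) and Col6a3 (−0.36) turned below 0. These views, chosen after seeing the data, decide most calls in this class. Leaving out either STZ-HFHC mouse gave 1 to 2 lower members. The median was 1.84 without limits on genes and mitochondrial counts, 1.92 without the highest 8% of doublet scores, 1.71 with collagen genes in the clustering, 1.81 at resolution 2, 1.48 with median-ratio size factors, 1.32 with nuclei thinned to 1000 UMIs, and 1.67 and 1.73 with minimums of 20 and 100 UMIs.

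The summed level in ND (1105 CPM) was 960.4 without the limits on nuclei, 1143 without high doublet scores, 1164 with size factors, 1345 thinned, 2005 scaled to markers and 2492 in the subclusters. The STZ-HFHC mean (2161 CPM) was 3021 without high doublet scores, 2498 with collagen genes clustered, 2588 at resolution 2, 1600.4 scaled to markers, which lies below the ND value on that scale, and 3344 in the subclusters. The share of collagen UMIs in ND (23.1%) was 49.2% without the limits on nuclei, 21.3% without high doublet scores and 1.46% in the subclusters. The STZ-HFHC mean share (24.7%) was 16.6%, 21.7% and 13.5% under these settings, 21.3% with collagen genes clustered, 20.2% at resolution 2 and 35.3% thinned.

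In endothelial-like nuclei (7 higher, 2 lower, median 0.91), 2 were higher and 1 lower when thinned, 4 and 1 with at least 100 UMIs, 3 and 0 at a log2 ratio of 2, and 3 higher scaled to markers. Without limits on nuclei 4 were lower. The median was 0.65 without high doublet scores, 0.79 at resolution 2, 0.75 with size factors, 0.72 and 1.07 with minimums of 20 and 100 UMIs, 0.018 scaled to markers, and 0.88 to 0.99 without 1 of the mice. Resolution 0.5 gave no endothelial-like value. In hepatocyte-like nuclei (6 higher, 4 lower), 12 were higher at resolution 2, 1 thinned and 1 at a log2 ratio of 2. Only 1 was lower without the limits on nuclei, without high doublet scores, with collagen genes clustered, at resolution 0.5, thinned, at a log2 ratio of 2 and scaled to markers.

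In macrophage-like nuclei (3 higher, 1 lower, median 0.56), 1 was higher without high doublet scores, 6 with at least 20 UMIs, and 0 when thinned, with at least 100 UMIs, at a log2 ratio of 2 and scaled to markers. At a log2 ratio of 2, 0 were lower. Its median turned to −0.71 thinned, −0.065 with at least 100 UMIs and −0.53 scaled to markers. No macrophage-like value was obtained without the limits on nuclei, with collagen genes clustered, or at resolutions 0.5 and 2. Fewer than 20 ND nuclei were named macrophage there. Over all nuclei (12 higher, 3 lower, median 0.86), 6 were higher when thinned, 1 higher and 0 lower at a log2 ratio of 2, and the median was 0.56 without the limits on nuclei, 0.69 with size factors and 0.77 to 0.85 without 1 of the mice. Col1a1 was found in 1.09%, 8.34% and 4.94% of stellate-like nuclei of ND, STZ-HFHC 1 and STZ-HFHC 2 without thinning, and in 7.89% and 3.84% of the STZ-HFHC mice at 2000 UMIs. For Col3a1 these shares were 12.9%, 38.0% and 30.1% without thinning, and 30.8% and 25.0% at 2000 UMIs.

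A higher minimum and thinning leave fewer members to call, and the cause of the other changes was not tested. Of the other values, 142 moved by less than the stated limit. For single genes 964 values did so, 296 moved further without a call changing sign and 3 called ratios changed sign. Those are the 3 given above, of 592 log2 ratios of called members. Of 605 log2 ratios of members not called, 49 changed sign, 25 of them by more than the spread between mice. In stellate-like nuclei these include Col5a3 (−0.49 to 1.56 in the subclusters), Col13a1 (0.13 to −1.16 without the limits on nuclei and also scaled to markers), Col4a4 (−0.49 to 0.33) and Col25a1 (−0.56 to 0.076) without the limits on nuclei, and Col4a5 (1.00 to −0.29) and Col27a1 (0.96 to −0.32) scaled to markers. Low counts limit Col1a1 in the subclusters of ND (2 UMIs) and most members in mesothelial-like, cholangiocyte-like and macrophage-like nuclei of ND.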
